A study of Saccharomyces cerevisiae with 6 samples.

Results

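The features described here are 18 short features of the authors' budding yeast annotation. Their normalised read counts were at least 3 times lower in nitrogen starvation than in untreated cells and were kept, or nearly kept, in potassium starvation. They were chosen from the authors' deposited table of normalised read counts, in which each library's counts are divided by 1 size factor. A feature had to be under 1000 bases long and to reach 20 in the lower control library. The higher nitrogen value had to be no more than the lower control value divided by 3, and the lower potassium value at least 0.7 of it. Of 5983 mRNA features in both deposited tables, 2640 were short enough, 516 of these reached the control level, 115 of those met the nitrogen condition and 24 also met the potassium condition. The choice sets aside 11 named features, 6 of which met these conditions, and so 18 of the 7127 features of the series remained. All 6 libraries chose the members, so their values in the 3 groups are a description, given without p-values.

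The strain was BY4741, a haploid laboratory strain in which HIS3, LEU2, MET17 and URA3 are deleted, and every group shares these deletions. Cells in logarithmic growth in synthetic complete medium were left untreated, or were starved of nitrogen or of potassium for 1 h. Every group has 2 libraries, numbered by batch. Polyadenylated RNA was sequenced with a kit that keeps the strand of the transcript. The series asks how yeast responds to potassium starvation, a condition that its title links to autophagy.

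Nitrogen starvation is sensed in yeast through the TORC1 kinase, whose activity drops when amino acids and ammonium run out, and transcription of ribosome and growth genes is then turned down while autophagy delivers cytoplasm to the vacuole. Potassium is the main cation of the cytoplasm and is taken up by Trk1 and Trk2, driven by the plasma membrane proton pump Pma1. Many short reading frames of the yeast annotation overlap a well-studied gene on the other strand and are classed as dubious.

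Of the 18 features, 15 overlapped an annotated protein-coding gene on the opposite strand, and only YDR274C, CWC25 (YNL245C) and LEE1 (YPL054W) are in the RefSeq annotation of build R64. The other 15 were placed by searching the R64 sequence for reading frames as long as the deposited length. The sequences below show how 3 of these features read the same stretch as a gene. Each pair is the same 60 bases of R64 from RefSeq, written 5′ to 3′ on each strand, and capitals mark the start codon of the gene on its own strand and its complement on the feature's strand. GND1 is shown on the plus strand of chrVIII:470939-470998 and YHR182C-A on the minus strand. TNA1 lies on the plus strand and YGR259C on the minus strand of chrVII:1012481-1012540, while YNL058C lies on the minus strand and YNL057W on the plus strand of chrXIV:516676-516735.
GND1: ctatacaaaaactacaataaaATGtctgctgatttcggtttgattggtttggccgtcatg
YHR182C-A: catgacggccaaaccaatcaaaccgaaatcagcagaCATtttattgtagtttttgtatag
TNA1: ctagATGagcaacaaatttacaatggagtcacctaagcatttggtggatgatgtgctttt
YGR259C: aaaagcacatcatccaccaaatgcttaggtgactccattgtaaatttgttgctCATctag
YNL058C: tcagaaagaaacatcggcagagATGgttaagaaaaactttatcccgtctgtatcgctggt
YNL057W: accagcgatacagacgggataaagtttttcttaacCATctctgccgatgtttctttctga

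In these 3 pairs the feature runs past the start codon of the gene and ends 21, 4 and 22 bases upstream of it, in that order, with its own stop codon as its last bases. Of the 15 features with an opposite gene, 6 covered the first base of that gene and 8 covered its last base. YPR126C could be placed at 2 positions, both opposite YLH47, and is given no coordinates. The features were 117 to 906 bases long, with a median of 376.5.

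**Figure D1:**
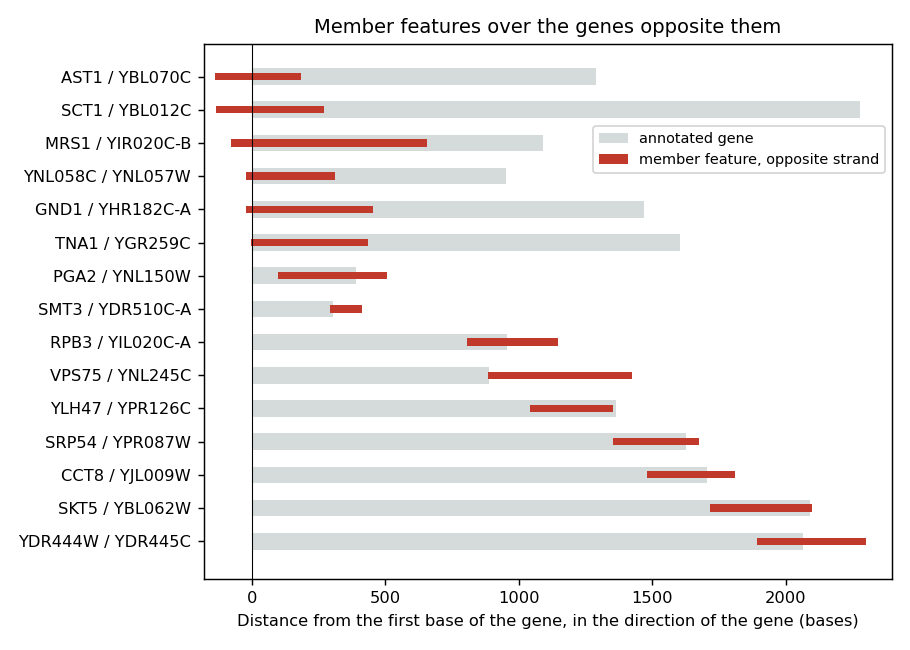
Position of 15 features (red) over the gene on the opposite strand (grey), in bases from the first base of the gene. The upper 6 features cover the start of the gene and most of the others its end; YPR126C is drawn at 1 of its 2 possible places opposite YLH47.

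The reads assigned to features were few, from 357839 to 425919 per library, and the number sequenced is not given here. The size factors recovered from the deposited table were 1.735 and 1.764 for the nitrogen libraries and 0.6268 to 0.9735 for the other 4, so nitrogen counts were divided by a larger number than the others. The 2 potassium libraries differed from each other more than the pairs of the other groups, with a chi-square per degree of freedom of 20.1 over 2015 features, against 5.59 for control and 6.27 for nitrogen, so libraries of a group differed by more than counting error. LEU2, MET17 and URA3 had 0 reads in every library and HIS3 at most 7, but this does not check the deletions, since the identifiers of genes the strain holds also had few reads, as RPB3 with 6 in all libraries together. The quantifier's strand setting is not given in the sources used here, and reads from a gene and from an antisense RNA cannot be told apart in these files. Counted with the opposite setting, a stranded library would put a gene's own reads under the feature on the other strand and antisense reads under the gene's identifier. Among 371 features outside the members that lie opposite a gene, with reads under either identifier, the feature held more reads per base than the gene's identifier in 346. All values below are therefore given by identifier, with no statement of which strand the RNA came from. Within a group of bulk cultures, fewer cells with a transcript and less RNA per cell cannot be told apart either.

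Features opposite genes of metabolism and nutrient transport come first. GND1 encodes the major 6-phosphogluconate dehydrogenase, an NADPH-forming enzyme of the pentose phosphate pathway. YHR182C-A, at chrVIII:470939-471412 on the minus strand, lay opposite its first 453 bases and had normalised counts of 1538 and 2074 in control, 230 and 248 under nitrogen starvation and 1101 and 1852 under potassium starvation. Its control values were all above its nitrogen values, with means 7.56-fold apart, and the potassium libraries spanned the lower control. TNA1 is the high-affinity transporter of nicotinic acid, a precursor of NAD. YGR259C, at chrVII:1012481-1012921 on the minus strand, had 523 and 500.3 in control, 69.8 and 102 under nitrogen starvation and 353 and 493 under potassium starvation. Its nitrogen mean was 5.98-fold lower than its control mean, and both potassium values lay below both controls. SCT1 is a glycerol-3-phosphate acyltransferase of lipid synthesis, and YBL012C, at chrII:203406-203807 on the minus strand, had 138 and 146 in control, 42.1 and 41.4 under nitrogen starvation and 101 and 128 under potassium starvation. This 3.4-fold difference between the nitrogen and control means was the smallest of the 18.

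The next features lay opposite genes of secretion and of the cell surface. PGA2 encodes an essential endoplasmic reticulum protein needed for the maturation of Gas1 and Pho8. YNL150W, at chrXIV:349251-349658 on the plus strand, shared 292 bases with it and had 1583 and 1514 in control, 342 and 255 under nitrogen starvation and 1127 and 1066 under potassium starvation. Its nitrogen mean was 5.18-fold below the control mean and both potassium values stayed under the controls. SRP54 is the GTPase subunit of the signal recognition particle, which brings secretory proteins to the endoplasmic reticulum. YPR087W, at chrXVI:711354-711674 on the plus strand, had 332 and 441 in control, 107 and 108 under nitrogen starvation and 259 and 326 under potassium starvation. Its nitrogen mean was 3.61-fold lower, and both potassium values were below both controls. SKT5 activates chitin synthase III, which makes cell wall chitin. YBL062W, at chrII:105308-105688 on the plus strand, had 326 and 423 in control, 101 and 108 under nitrogen starvation and 355 and 546 under potassium starvation. One potassium value lay between the controls and the other above both. AST1 helps to deliver the proton pump Pma1 to the plasma membrane. YBL070C, at chrII:90605-90925 on the minus strand, had 38.9 and 34.2 in control, 9.22 and 10.8 under nitrogen starvation and 40.1 and 43.1 under potassium starvation. It was 3.66-fold lower in nitrogen, and it is 1 of 2 features whose potassium values both lay above both controls.

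A further set lay opposite genes of protein folding, protein modification and transcription. CCT8 is a subunit of the cytosolic chaperonin that folds actin and tubulin. YJL009W, at chrX:419855-420181 on the plus strand, had 418 and 566 in control, 103 and 104 under nitrogen starvation and 337 and 463 under potassium starvation, a 4.75-fold lower nitrogen mean. SMT3 encodes SUMO, the small ubiquitin-like modifier. YDR510C-A had more than 1 candidate place and was put, by the position of its numbered neighbours, at chrIV:1469695-1469811 on the minus strand, where it overlaps the last 11 bases of SMT3. It had 163 and 222 in control, 25.9 and 31.2 under nitrogen starvation and 124 and 196 under potassium starvation, a 6.74-fold difference. RPB3 is a subunit of RNA polymerase II. YIL020C-A, at chrIX:313713-314051 on the minus strand, had 291 and 374 in control, 74.9 and 65.8 under nitrogen starvation and 221 and 298 under potassium starvation, with a nitrogen mean 4.72-fold lower. CWC25 is itself an annotated splicing factor gene, at chrXIV:186346-186885 on the minus strand, and shares only 4 bases with VPS75, a histone chaperone on the other strand. It had 135 and 107 in control, 22.5 and 22.1 under nitrogen starvation and 76 and 84.6 under potassium starvation, and both potassium values were below both controls.

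Mitochondrial genes were also among those opposite. MRS1 is needed to splice group I introns of mitochondrial RNA, and YIR020C-B, at chrIX:397215-397949 on the minus strand, had 125 and 144 in control, 40.4 and 34 under nitrogen starvation and 121 and 104 under potassium starvation. YLH47 is an inner membrane protein of the LETM1 family, which is linked to potassium and proton exchange in mitochondria. YPR126C, opposite it, had 129 and 213 in control, 34.6 and 41.4 under nitrogen starvation and 135 and 236 under potassium starvation, a nitrogen mean 4.5-fold lower, with 1 potassium value between the controls and 1 above both.

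The remaining features lay opposite genes without a known function, or opposite none. YNL057W, at chrXIV:516403-516735 on the plus strand and opposite YNL058C, had 132 and 134 in control, 28.2 and 11.3 under nitrogen starvation and 112 and 164 under potassium starvation. Its nitrogen libraries differed from each other, with 49 and 20 reads. YDR445C, at chrIV:1352182-1352589 on the minus strand and opposite YDR444W, had 65.2 and 61 in control, 19 and 7.37 under nitrogen starvation and 43.1 and 81.4 under potassium starvation. YDR274C, at chrIV:1011589-1011960 on the minus strand, had no gene opposite and 95.3 and 138 in control, 10.4 and 10.2 under nitrogen starvation and 99.6 and 68.6 under potassium starvation, an 11.4-fold lower nitrogen mean. Its 2 potassium values lay 1 above the lower control and 1 below it. YHR049C-A, at chrVIII:207234-207530 on the minus strand, starts or ends 40 bases from FSH1 and had 37.6 and 31.3 in control, 4.61 and 1.13 under nitrogen starvation and 44.2 and 51 under potassium starvation. Both its potassium values lay above both controls. LEE1, a zinc-finger gene of unknown function at chrXVI:455759-456664 on the plus strand, had 23.8 and 37.2 in control, 0.577 and 2.83 under nitrogen starvation and 22.6 and 20.7 under potassium starvation. Its nitrogen libraries held 1 and 5 reads, so its 17.9-fold difference, the largest of the 18, rests on few reads.

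**Figure D2:**
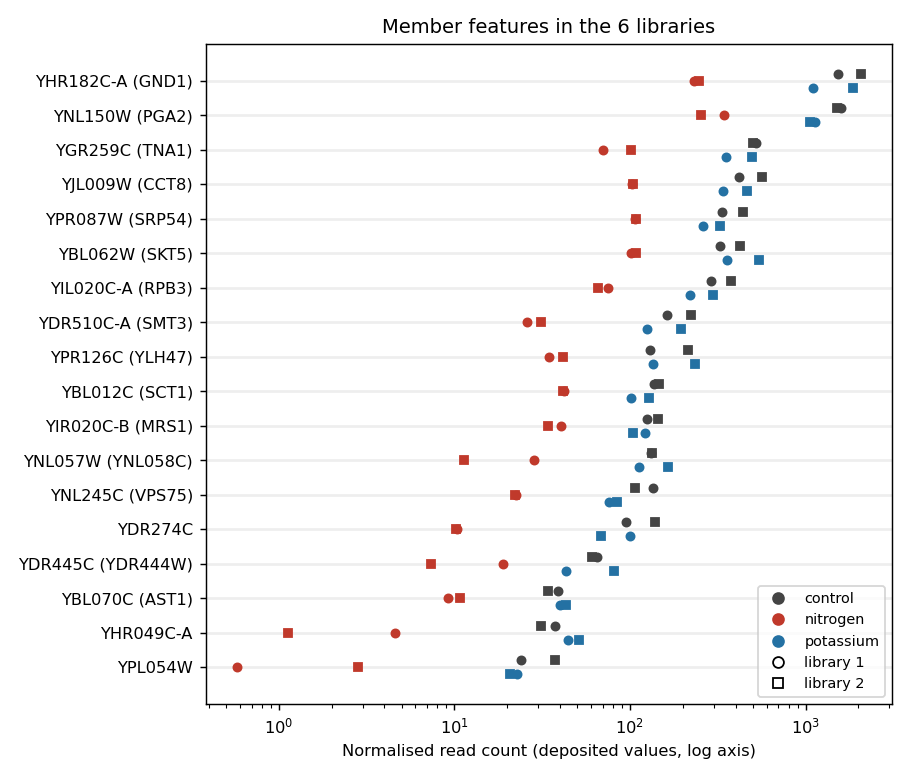
Normalised read counts of the 18 features in each of the 6 libraries, on a log axis. The 2 nitrogen libraries lie below the 2 control libraries in all 18 features, which the choice of members required.

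Over the 18 features the nitrogen mean was 3.40- to 17.9-fold below the control mean, with a median of 4.98-fold. The potassium mean was 0.662 to 1.38 times the control mean, with a median of 0.822. Potassium values lay both above both controls in 2 features (YBL070C and YHR049C-A), both below in 7, and overlapped the controls in 9. Without potassium library 1 the rule met 35 features and without potassium library 2 it met 19, sets that hold all 18 by construction. Without control library 1 it met 13 features, 9 of them members, and without control library 2 it met 16, 14 of them members. Of the reads assigned to features, the members together held 1.14% and 1.15% in the control libraries, 0.613% and 0.568% in nitrogen and 1.27% and 0.969% in potassium.

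The size of the nitrogen difference depended on the scaling. With edgeR and TMM scaling over 2325 features that passed a filter on low counts, the median log2 difference of the 18 features between nitrogen and control was -2.55, from -4.28 to -2.00, beside 0.28 over all tested features. In all, 382 features lie opposite exactly 1 protein-coding gene, over at least 50% of their length and at least 100 bases. Of these, 345 were tested, and a second scaling was set on all 382. With it the median was -1.27 and 13 of 18 lay below -1, beside 1.56 over all tested features. With library size alone it was -0.85, with 7 of 18 below -1, beside 1.97. The membership rule itself kept 10 of the 18 features with TMM, 3 with the scaling on opposite features and 1 with library totals. In the deposited TPM, which are per length and sum to the same total in each library, both nitrogen libraries lay below both controls in 12 features and overlapped them in 6. One of the 6 was YPR087W, opposite SRP54, at 731 and 816 TPM in control and 795 and 715 in nitrogen. Between potassium and control the median log2 difference was -0.30 with TMM, -0.13 with the scaling on opposite features and -0.05 with library size alone.

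**Figure D3:**
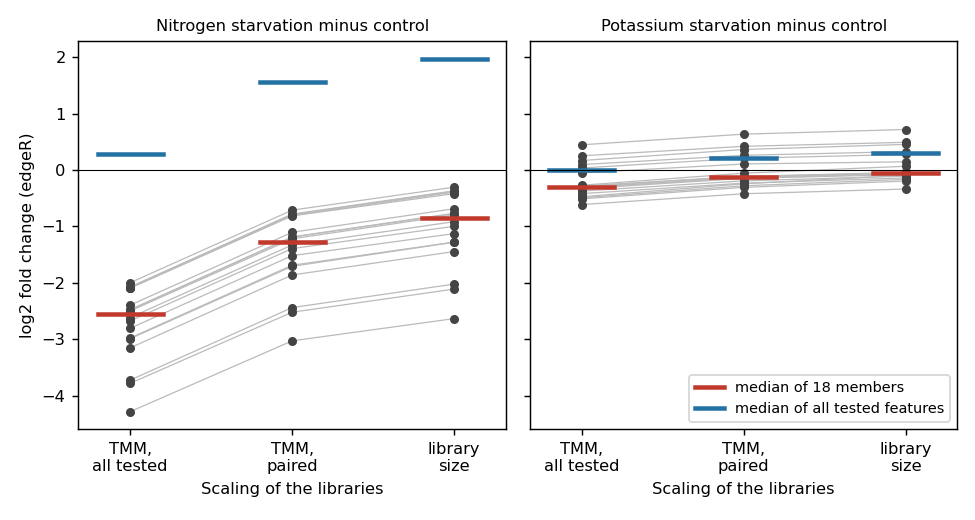
Log2 differences (edgeR) of the 18 features under 3 scalings, with nitrogen minus control on the left and potassium minus control on the right; lines join a feature, and red and blue bars mark the medians of the members and of all tested features. On the left, where the choice of members required low values, their median moves from -2.55 with TMM to -0.85 with library size alone.

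The thresholds set which features entered. In control level the lowest members were LEE1 at 23.8, YHR049C-A at 31.3 and YBL070C at 34.2, and the nearest features left out were YLR347W-A at 18.8 and YLR435W and YKL068W-A at 17.9. For the ratio of higher nitrogen to lower control the highest members were YBL062W at 0.332, YPR087W at 0.324 and YIR020C-B at 0.322, and the nearest left out were YER158W-A at 0.357, YDR396W at 0.368 and YMR153C-A at 0.371. For the ratio of lower potassium to lower control the lowest members were YNL150W at 0.704, YGR259C at 0.706 and YDR445C at 0.707, and the nearest left out were YOR282W at 0.69971, YFR036W-A at 0.651 and YHL030W-A at 0.635. Without the length limit 27 features met the conditions, and the longer ones nearest to the limit were ADH1 at 1047, FBA1 at 1080 and AIM17 at 1398 bases.

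The identity of the opposite genes was compared with that of other short features. This took only features that reached the control level and lie opposite 1 gene over the length set for the second scaling, as 10 members do. Of such features, 64 met the nitrogen condition but were under 0.7 of the lower control in potassium. The genes opposite them included 15 ribosomal protein genes and 11 ribosome assembly genes. Among the 16 that also met the potassium condition, features set aside included, 0 lay opposite either kind of gene, and among 227 that did not meet the nitrogen condition, 0 did. These counts are not tested. Of 26 gene lists, 3 held an opposite gene of a member: GND1 in redox and pentose phosphate genes, SRP54 in secretory genes and RPB3 in transcription and chromatin genes.

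The lists gave context for the opposite genes in nitrogen, where 46.3% of all 2325 features were called at an adjusted p below 0.05, 25.9% higher and 20.4% lower. Among the 345 tested features opposite genes, 60% were called lower and 5.8% higher. In the transcription and chromatin list 9 tested features lay opposite its genes. Of these, YGR114C and YGR115C both lie opposite SPT6, YIL021C-A is described again below, and YER158W-A is among the features set aside. In nitrogen 9 of 9 were called lower, with a median log2 difference of -2.05, beside -1.18 over the 345 features. Some listed features met the rule's own nitrogen condition, as YIL021C-A did, so the counts of listed features are a description. With the scaling on opposite features 8 of 9 were called lower, where 7.57% of all features and 25.5% of the 345 were called lower. In the secretory list, the member YPR087W left out, 6 of 7 were lower, and 2 of 7 with that scaling, where the feature opposite PMR1, the Golgi calcium pump, rose by 0.71 (adjusted p = 0.0221, edgeR); with TMM its log2 difference was -0.58 (adjusted p = 0.0858). The feature opposite SEC61, the core of the translocon that receives the signal recognition particle's cargo, fell by 2.69 (edgeR), and by 1.39 with the scaling on opposite features. It met the rule's nitrogen condition and was singled out after its values were seen, so it is given without a p-value. In the redox list no feature other than the member YHR182C-A could be tested. In potassium 9.33% of all features were called, 4.73% higher and 4.6% lower, and 6.67% of the features opposite genes were higher and 15.1% lower. The calls there included 2 of 9 in the transcription list. The feature opposite BUR6, a transcription repressor subunit, rose by 0.82 (adjusted p = 0.0438, edgeR), and that opposite SPT15, the TATA-binding protein, fell by 0.96. The SPT15 feature met the rule's nitrogen condition but not its potassium condition, so it is given without a p-value. In the secretory list 1 of 7 was called, the feature opposite YIP3, which fell by 2.10 (adjusted p = 0.00816, edgeR). Under their own identifiers, 1 of 7 tested genes of the transcription list rose in nitrogen, 5 of 18 of the secretory list rose and 2 fell, and 2 of 6 of the redox list rose.

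The reads counted under the opposite genes' own identifiers, whichever strand they came from, took no part in choosing the members and could be tested. Most of these identifiers held far fewer reads than the members. Per base, the member's reads were 0.699 to 4385 times those of its gene, with a median of 271.6, and exceeded them in 14 of 15 pairs. The exception was CWC25 against VPS75. In reads not divided by length, VPS75 (811 beside 385) and YNL058C (534 beside 476) held more than their members over all libraries. Only AST1, YNL058C and VPS75 passed the filter on low counts, and 5 of the 15 identifiers held 10 or fewer reads in all 6 libraries together.

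YNL058C had 31 and 24 reads in control, 219 and 205 in nitrogen and 39 and 16 in potassium. It was higher in both nitrogen libraries than in any other, by a log2 difference of 1.46 (SE 0.31, adjusted p = 0.00479, edgeR's quasi-likelihood test over 2325 features) against control and 1.64 (SE 0.31, adjusted p = 0.00343) against potassium. Both differences passed the threshold in 12 of 12 alternatives, with adjusted p from 0.000381 to 0.0283 and log2 differences from 1.40 to 3.15 against control, and adjusted p from 0.000108 to 0.0169 against potassium. Between nitrogen and potassium 42.6% of all features were called, 23.2% higher and 19.4% lower in nitrogen. Between potassium and control the log2 difference was -0.18 (adjusted p = 0.797). The member YNL057W on the other strand was at 105 and 90 reads, then 49 and 20, then 109 and 103, where the rule required the low nitrogen values.

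VPS75 had 114 and 131 reads in control, 231 and 165 in nitrogen and 91 and 79 in potassium. With TMM it was called lower in nitrogen, with a log2 difference of -0.81 (SE 0.27, adjusted p = 0.0351, edgeR). With library size alone it was called higher by 0.90 (adjusted p = 0.0375), and with the scaling on opposite features the difference was 0.48 (adjusted p = 0.117). Its direction thus turned with the scaling. It was called in 6 of 12 alternatives, and these include the call as higher with library size alone. AST1 had 11 and 8, 17 and 20, and 2 and 3 reads, and its differences from control were -0.51 (adjusted p = 0.403, edgeR) in nitrogen and -2.00 (adjusted p = 0.0871) in potassium. The nitrogen difference turned to 1.16 with library size alone and 0.76 with the scaling on opposite features, not called in either. Between nitrogen and potassium it was 1.49 (adjusted p = 0.0763), and it was called under those scalings, at 2.89 and 2.55. In potassium none of the 3 own identifiers was called by edgeR; 2 of 3 had an unadjusted p under 0.05, and DESeq2 called 0.

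FSH1, a putative serine hydrolase gene, lies 40 bases from YHR049C-A and was added after its values were seen. Its own identifier had 11 and 15 reads in control, 188 and 126 in nitrogen and 20 and 7 in potassium. The log2 difference was 2.08 (SE 0.43, adjusted p = 0.00451, edgeR) against control and 2.23 (adjusted p = 0.00388) against potassium, past the threshold in 12 of 12 alternatives. YHR049C-A had 30 and 21, 8 and 2, and 43 and 32 reads in the same order, where the rule likewise required the low nitrogen values.

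**Figure D4:**
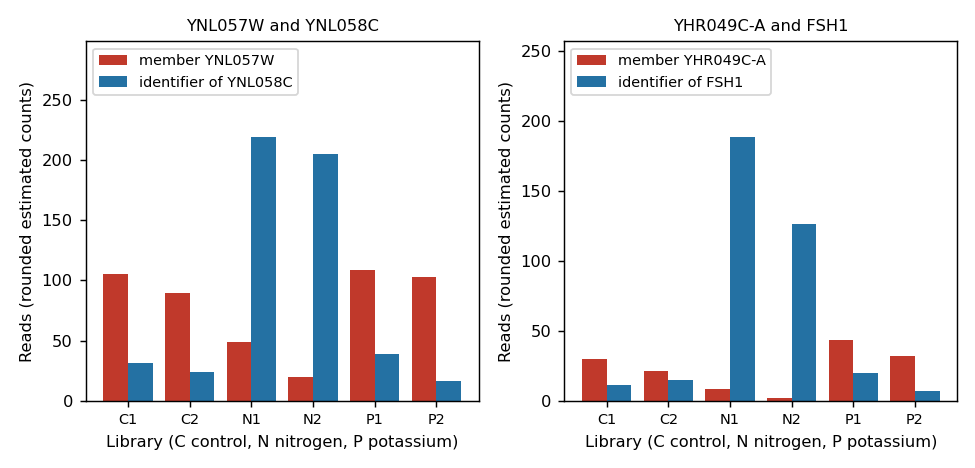
Reads (rounded estimated counts) per library for YNL057W with YNL058C and for YHR049C-A with FSH1; C, N and P are control, nitrogen and potassium libraries. The blue bars are highest in the 2 nitrogen libraries, where YNL058C had 219 and 205 reads, and the red bars are low there because the members were chosen so.

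RPB3 had a further feature opposite it, YIL021C-A, added after its values were seen. It lies at chrIX:313199-313468 on the minus strand and shares 0 bases with YIL020C-A. Its normalised counts were 317 and 319 in control, 66.9 and 39.1 in nitrogen and 187 and 227 in potassium, and its lower potassium value was 0.589 of the lower control, which left it out of the members. It met the rule's length, control and nitrogen conditions, with a ratio of higher nitrogen to lower control of 0.211. The rule thus used its nitrogen and its potassium values, so its differences are a description, given without p-values. The log2 difference was -2.82 (SE 0.27, edgeR) in nitrogen against control and -2.19 against potassium. With the scaling on opposite features the difference from control was -1.54, and with library size alone it was -1.12 against control and -0.76 against potassium. In potassium against control, with TMM, the log2 difference was -0.64 (SE 0.26).

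The promoters of the 15 opposite genes, from 250 bases before to 50 after the start codon in R64, were searched on both strands for 16 motifs. The TATA box TATAAA was in 46.7% of them, beside 45.2% of 6001 yeast promoters, and CTTCC, an element bound by Gcr1, was in 66.7% beside 46.4%. The nitrogen-regulated GATA element GATAAG was found in 1 of the 15, that of TNA1, beside 14.7% of all promoters. The Rap1 element ACACCCA, which marks many ribosomal protein promoters, was in 0 of 15 and in 2.25% of all. With 15 promoters these shares are a description.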

How the data were processed

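RNA sequencing libraries of 3 groups, 2 libraries each, were analysed. The authors' deposited files hold, per library, estimated counts of reads for 7127 features, which need not be whole, and TPM values. The column names match salmon output, per the file headers, and neither its version nor its strand setting is given in the sources used here. In addition, the authors deposited 1 table over all libraries, whose signal is DESeq2-normalised counts for 6108 features, that is, counts over the size factor of their library. STAR 2.7.3a and DESeq2 are named with build R64, per the submitters' processing notes. Multiplied back, 100% of the table's values were whole reads within a tolerance of 0.001, and in each library over 99% equalled the rounded estimated counts, so the count test ran on the rounded counts.

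Features were placed on the R64 reference of RefSeq, 6001 by its annotation and 616 by a search for reading frames. The frames had to be as long as the deposited length, on the strand that the identifier names. Where more than 1 frame fitted, the position of numbered neighbours was used to choose. Without that last step, the search found 5274 of 5622 annotated genes and placed 336 more than once. Placements that needed the step, as that of YDR510C-A, were thus not checked. Membership used the deposited normalised values. Estimated counts were rounded and fitted in edgeR 4.0.16 under R 4.3.3, with TMM scaling, filterByExpr and the quasi-likelihood test, in 1 fit of all 6 libraries with 3 residual degrees of freedom, with Benjamini-Hochberg adjustment over 2325 features and a threshold of 0.05. DESeq2 1.42.0, other scalings, no filter, a batch term and leaving out each library were alternatives. The fit was also run on simulated data, with TMM sizes taken as true and equal numbers of features raised and lowered. That run could not test the choice of scaling.

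The labels give each library a batch characteristic, 1 or 2, which matches its replicate number and pairs the libraries across groups. The values show little of it: deviations from the group means correlated at -0.00096 between control and nitrogen, -0.00045 between control and potassium and 0.063 between nitrogen and potassium. The labels name no separate cultures, so the p-values reflect library-to-library spread alone, which may be technical. The members, the gene lists and the tests were chosen with earlier results of these data known. Named features were all members, the 3 features nearest to each threshold on either side, the opposite genes' own identifiers that could be tested, and FSH1, YIL021C-A and list members singled out after their values were seen.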

Additional observations from a re-analysis of the deposited data

How the results depend on the processing

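Membership depended most on the scaling and the thresholds. The same rule found 2 features with library totals (1 of the 18 members) and 10 with TMM (10 of the 18). It found 3 with TMM over features opposite genes (the members YDR274C, YHR049C-A and LEE1) and 2 with TPM (0 of the 18). It found 48 with nitrogen at most 1/2 of the control, 10 at most 1/4, 32 with potassium at least 0.5 of it and 8 at least 0.8. Leaving out 1 library gave 13 (without control 1) to 35 (without potassium 1) features, and 30 without nitrogen 1. The median log2 difference of the members between nitrogen and control was -0.85 with library size alone, -1.27 with TMM over features opposite genes and -2.32 with DESeq2, and -2.66 to -2.46 when 1 library was left out; the choice of members fixes its sign. Between potassium and control it was -0.49 without potassium 2 and -0.02 without potassium 1. Of the 3 own identifiers, 2 were called between nitrogen and control, beside 46.3% of all features. With TMM over features opposite genes it was 1 of 3, beside 63.7%. Of the 15 fitted, 1 was called without a filter on low counts, beside 18.55%, and 1 with DESeq2, beside 12.8%. Leaving out 1 library gave 1 (without control 2, nitrogen 1 or nitrogen 2) or 2 of the 3 or 4 tested, beside 28.2% to 39.7% of all features. Between nitrogen and potassium 1 of 3 was called, beside 42.6% of all features. It was 3 of 3 with library size alone, where 1200 of all features were higher and 99 lower. With TMM over features opposite genes it was also 3 of 3, where 1141 were higher and 178 lower. VPS75 turned to 0.90 and 0.48 against control and to 1.27 and 0.93 against potassium with library size alone and with TMM over features opposite genes. The share of features called between potassium and control was 4.99% with library size alone, and 3.47% (without potassium 1) to 8.61% with 1 library left out, 4.97% without control 1 and 3.93% without control 2. The cause of these changes was not tested.

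With the replicate block, batch number as a term, 1042 features were called between nitrogen and control, 233 between potassium and control and 968 between nitrogen and potassium, beside 1076, 217 and 991 without it. The member median was -2.56 between nitrogen and control and -0.31 between potassium and control, and the block changed no call of the own identifiers. The filter on low counts removed 12 of the 15 opposite genes' own identifiers, and without it, or with DESeq2, all 15 entered the fit.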
